A study of Mus musculus with 16 samples.

Results

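The miR-10, miR-99, miR-100 and miR-125 family comprised 7 mature miRNAs, chosen by name: mmu-miR-99a-5p, mmu-miR-99b-5p, mmu-miR-100-5p, mmu-miR-125a-5p, mmu-miR-125b-5p, mmu-miR-10a-5p and mmu-miR-10b-5p, written below without the species prefix. All 7 had a row in the deposited table of small non-coding RNA, which listed 18488 features, 1969 of them miRNA arms or hairpins by the "mmu-" prefix of their names. Small RNA was sequenced from about 10 mg of prefrontal cortex of 8 PS19 mice and 8 wild-type (WT) littermates, with an age of about 9.6 months. PS19 mice were heterozygous for the transgene Tg(Prnp-MAPT*P301S)PS19Vle on a B6;C3 background, in which the mouse prion promoter (Prnp) drives human tau (MAPT) with the P301S mutation, and WT mice carried no transgene. Males and females were used equally in each genotype, but the labels do not give the sex of a library. A small RNA table holds no transcript of the transgene, so the genotype labels could not be checked against it.

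MicroRNAs are short RNAs that guide the silencing complex to messenger RNAs, chiefly through the seed, the bases near their 5′ end. The miR-10 family is among the oldest of animal miRNA families, and miR-125 is the vertebrate form of nematode lin-4, a timer of development. In the brain, miR-125a and miR-125b are known for control of synaptic proteins, miR-99a and miR-100 for control of the mTOR kinase, and miR-10a and miR-10b, encoded inside Hox gene clusters, mark hindbrain and spinal cord more than cortex.

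The mature sequences are shown because the seed divides the family into its groups, and because some members differ by only 1 base outside the seed. They are the RefSeq entries for mouse on GRCm38.p6, with the seed (bases 2 to 8) in capitals, and all 7 members had an entry.
miR-99a-5p: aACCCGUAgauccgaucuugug
miR-99b-5p: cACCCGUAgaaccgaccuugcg
miR-100-5p: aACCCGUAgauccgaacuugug
miR-125a-5p: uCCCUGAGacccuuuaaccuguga
miR-125b-5p: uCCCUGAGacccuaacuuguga
miR-10a-5p: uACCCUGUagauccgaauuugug
miR-10b-5p: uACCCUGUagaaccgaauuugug
miR-351-5p, which is no member: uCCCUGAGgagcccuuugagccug

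There were 3 seeds. miR-99a, miR-99b and miR-100 shared 1 of them, miR-125a and miR-125b another, and miR-10a and miR-10b the third. Counting positions from 1 at the 5′ end, miR-99a-5p and miR-100-5p differed only by U16A, and miR-10a-5p and miR-10b-5p only by U12A, the first-named base being that of the first-named miRNA. miR-99b-5p differed from miR-99a-5p by A1C, U11A, U16C and U21C. miR-125a-5p (24 bases) and miR-125b-5p (22 bases) shared their first 13 and last 5 bases. miR-351-5p had the seed of miR-125 but shared only the first 8 bases with miR-125a-5p.

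In the GENCODE annotation of GRCm38, the hairpins of 5 members lay in 3 clusters that each also held a let-7 hairpin, all on the plus strand. Mir99a (chr16:77598936-77599000), Mirlet7c-1 and Mir125b-2 (chr16:77646273-77646343) spanned 47.4 kb in introns of the non-coding host gene Mir99ahg. Mir100 (chr9:41531425-41531504), Mirlet7a-2 and Mir125b-1 (chr9:41581926-41582002) spanned 50.6 kb in introns of the non-coding gene 3110039I08Rik. Mir99b (chr17:17830188-17830257), Mirlet7e and Mir125a (chr17:17830812-17830879) lay within 0.692 kb of the protein-coding gene Spaca6, Mir99b in an intron and Mir125a overlapping an exon. Mature miR-125b-5p has the same sequence at both of its loci, so its reads could not be assigned to either. Mir10a (chr11:96317165-96317274) lay between genes, 993 bases from Hoxb4, and Mir10b (chr2:74726070-74726137) lay in introns of Hoxd3 and Hoxd4.

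The values below are normalized read counts: reads per feature divided by 1 size factor per library, as the authors deposited them. Summed over all features, the 16 libraries held 13187096 to 23058568 reads. A read counted under more than 1 feature would enter this sum, and the shares below, more than once, which was not tested. miRNA features took 25.5% ± 5.40 of the normalized signal in PS19 cortex and 26.3% ± 6.24 in WT (mean ± SD, n = 8 each, as throughout), with a range over all libraries of 15.0% to 32.6%. Together the 7 members took 5.62% ± 0.81 of the miRNA signal in PS19 and 5.32% ± 0.80 in WT. The neuronal markers miR-124-3p, miR-128-3p, miR-137-3p and miR-9-5p were present, with a summed level of 294008 to 1024824 in PS19 and 341011 to 951040 in WT. The miRNAs that mark Hox-expressing hindbrain and spinal cord (miR-196a-5p, miR-196b-5p and miR-615-3p) reached no more than 4 reads in any library.

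No member passed a threshold for a difference between PS19 and WT cortex. In limma on the log2(value + 1) scale, with 6024 features tested, 0 of 7 members had a Benjamini-Hochberg adjusted p under 0.05, where 0% of all tested features did, and 0 of 7 had an unadjusted p under 0.05, where 4.0% (241 features) did. The values of the genotypes overlapped for all 7. In PS19, 4 members had a higher mean log2 level and 3 a lower one. The median log2 difference (PS19 minus WT) over the members was 0.02, beside -0.02 over all tested features and -0.12 over the 748 miRNA features tested, of which 6 were higher and 12 lower in PS19 at an unadjusted p under 0.05. The adjusted p was 0.9998 for each of the 7 members, and the 95% confidence intervals below give the range of differences compatible with these libraries. On the recovered reads, DESeq2 also called 0 of the 7 members at either threshold, where it called 0.382% of the 3922 features it gave an adjusted p (15 features) and 4.73% of all 6024 at an unadjusted p (285). edgeR called 0 of 7 as well, beside 0% of all features at an adjusted p and 4.40% at an unadjusted p (265). These p-values set the difference between genotypes against the variation between libraries, 1 per mouse, within each genotype. In limma that variation was estimated partly from all tested features.

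**Figure D1:**
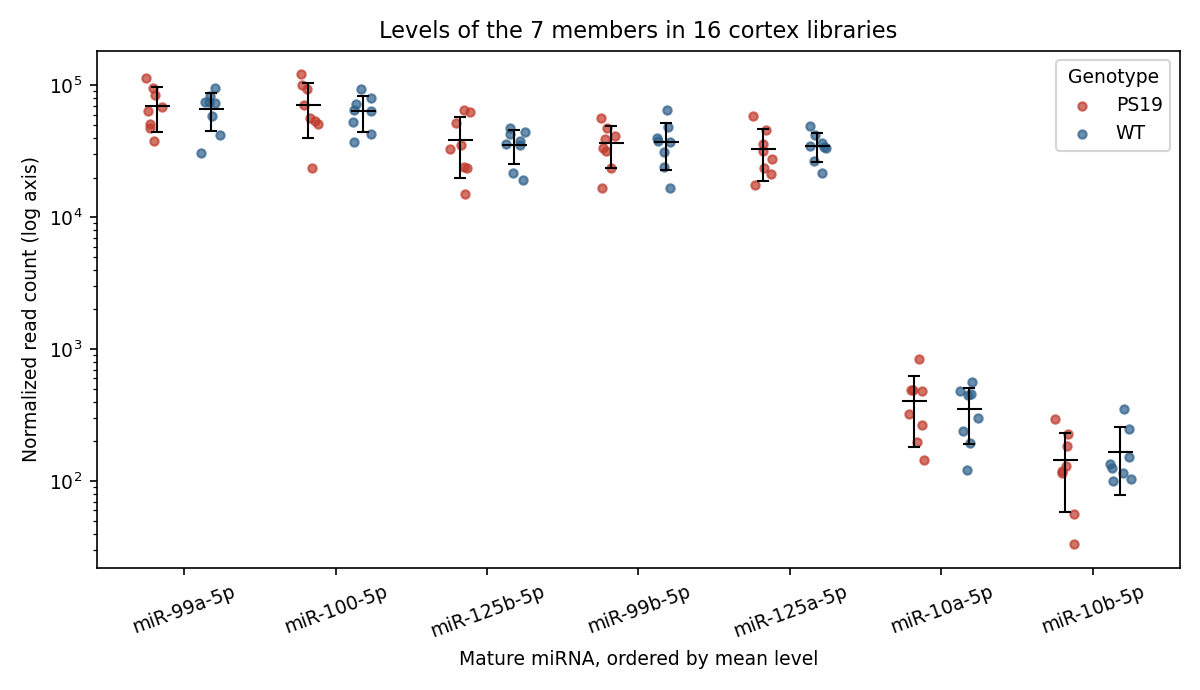
Normalized read count (log axis) of each member in the 8 PS19 and 8 WT libraries, with the mean and SD of each genotype as black bars. The genotypes overlap for every member, and miR-10a-5p and miR-10b-5p lie far below the other 5.

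Among the miRNAs with the miR-99/100 seed, miR-99a-5p ran from 37734 (median 66155) to 113677 in PS19 and from 30586 (median 73756) to 96113 in WT. The highest and the next-lowest values of the 16 were both PS19, and the lowest was WT. The means were 70234 ± 26077 and 66527 ± 21556, a log2 difference of 0.07 ± 0.25 (SE; 95% confidence interval from limma -0.46 to 0.60).

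miR-100-5p, which differs from miR-99a-5p by a single base, ranged from 23794 (median 64023) to 121293 in PS19 and from 37203 (median 64588) to 94184 in WT. The PS19 values lay on both sides of the whole WT range. Its mean was 71465 ± 31807 in PS19 and 63558 ± 19029 in WT, and the log2 difference was 0.08 ± 0.28 (interval -0.50 to 0.66).

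miR-99b-5p, from the chromosome 17 cluster, ranged from 16592 (median 36582) to 56415 in PS19 and from 16644 (median 37436) to 64475 in WT. Both ranges began at nearly the same level, and the highest value was WT. The means were 36280 ± 12837 and 37406 ± 14599, with a log2 difference of -0.03 ± 0.27 (interval -0.59 to 0.52).

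Of the lin-4 homologues, miR-125a-5p ranged from 17477 (median 29682) to 58978 in PS19 and from 21749 (median 34364) to 49254 in WT. Only 3 of the 8 PS19 values exceeded the median of WT, and the means were 32785 ± 13827 and 34760 ± 8451. The log2 difference of -0.15 ± 0.23 (interval -0.64 to 0.34) had the narrowest interval of the 7.

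miR-125b-5p ranged from 14986 (median 33915) to 65126 in PS19 and from 19163 (median 37023) to 47420 in WT. Its PS19 values extended beyond the WT range at both ends, as those of miR-100-5p did. The means were 38666 ± 18850 and 35571 ± 10234, and the log2 difference was 0.02 ± 0.29 (interval -0.57 to 0.61). miR-351-5p, the non-member with this seed, had means of 147.7 ± 42.8 and 166.2 ± 67.4 and a log2 difference of -0.13 ± 0.25.

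The Hox-encoded pair was lower and more variable. miR-10a-5p ranged from 144.8 (median 402.8) to 846.3 in PS19 and from 121.6 (median 375.4) to 568.9 in WT, which came from 172 to 820 reads per library. The means were 405.1 ± 223.4 and 351.4 ± 159.6, with a log2 difference of 0.17 ± 0.36 (interval -0.57 to 0.91).

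miR-10b-5p ranged from 33.3 (median 124.5) to 295.1 in PS19 and from 101.1 (median 130.1) to 351.1 in WT. Only PS19 replicate 1 (56.8, from 39 reads) and PS19 replicate 7 (33.3, from 56 reads) lay below the WT range, and the other 6 PS19 libraries lay within it. The means were 145.2 ± 86.9 and 166.7 ± 88.4, and the log2 difference of -0.33 ± 0.38 (interval -1.12 to 0.45) was the furthest from 0 among the 7 and also had the widest interval. Without those 2 libraries, left out after their values were seen, the log2 difference was 0.15.

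**Figure D2:**
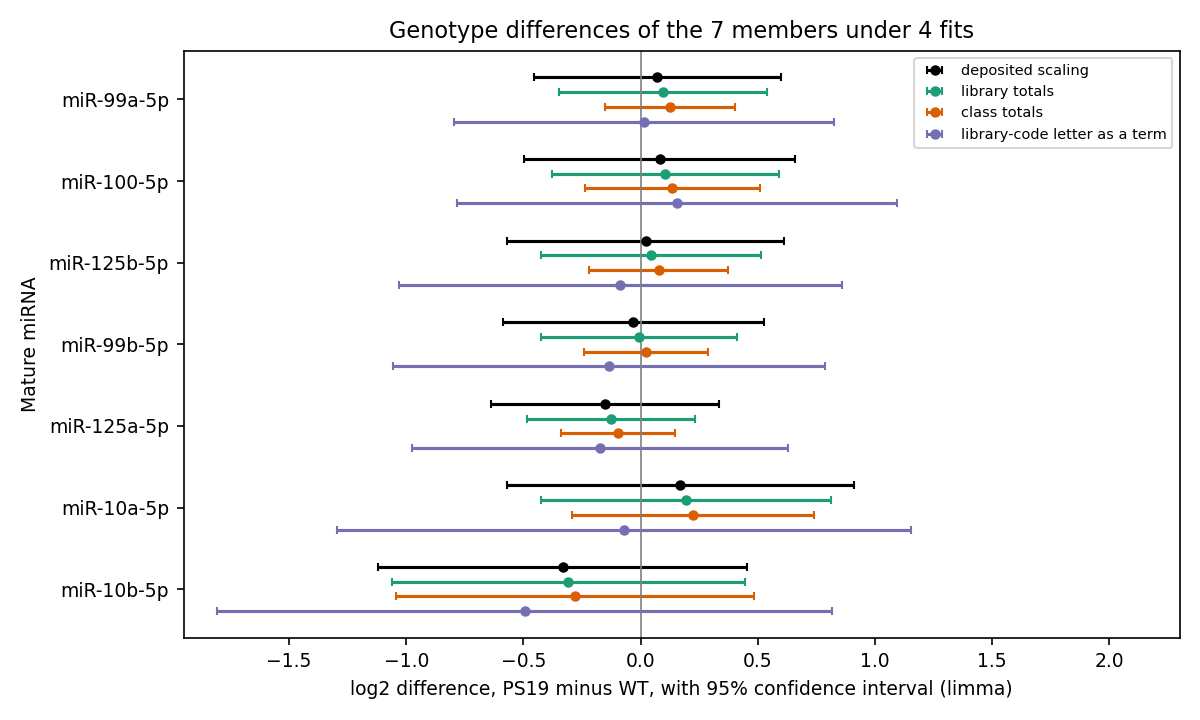
The log2 difference (PS19 minus WT) of each member with its 95% confidence interval from limma, under the deposited scaling, scaling to library totals, scaling to the total of each RNA class, and with a term for the first letter of each library's code. Every interval of every member includes 0, and those of miR-10b-5p are wider than those of miR-99a-5p in each fit. With the letter term, only libraries whose code begins with G (8 PS19 and 2 WT) compare the genotypes. The SE of miR-99a-5p was 0.39 in that fit, beside 0.25 under the deposited scaling without the term.

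The members fell into 4 levels, separated by 3 resolved steps, with nearly equal lengths (22 to 24 bases), so that read counts could be set side by side, although ligation and amplification of small RNA depend on sequence. Among 1241 mature miRNA rows, miR-99a-5p was 14th and miR-100-5p 15th by mean level (68381 and 67512 over the 16 libraries). They did not differ beyond the spread of their ratio between libraries, and miR-99a-5p was the higher in 7 of 16 libraries. Their geometric mean ratio (here and below of values + 1) was 1.03 (adjusted p = 0.743, exact two-sided sign-flip permutation test, Benjamini-Hochberg over the 6 neighbouring pairs in the order of levels).

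Next came miR-125b-5p, miR-99b-5p and miR-125a-5p, ranked 22nd, 23rd and 26th with means of 37119, 36843 and 33773. miR-100-5p was 1.83-fold higher than miR-125b-5p, in 16 of 16 libraries (adjusted exact permutation p = 6.1e-05, from the smallest p that 65536 sign patterns allow). Within this level, miR-125b-5p exceeded miR-99b-5p in 8 of 16 libraries (ratio 0.995, adjusted exact permutation p = 0.938), and miR-99b-5p exceeded miR-125a-5p in 11 of 16 (ratio 1.07, adjusted exact permutation p = 0.208). The order inside this level was therefore not resolved.

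miR-10a-5p (mean 378.3, rank 162) was far lower: miR-125a-5p exceeded it 96.0-fold in geometric mean. miR-10b-5p (mean 156.0, rank 223) was lower again, by 2.46-fold. Both steps had the same direction in 16 of 16 libraries and the smallest p of this test (adjusted exact permutation p = 6.1e-05). The step to miR-10b-5p is less certain, because the ratio was under 2 in 7 of 16 libraries and a circular RNA feature, described below, had nearly the same reads as miR-10b-5p; whether reads were divided between these 2 rows was not tested. Summed by seed, the miR-99/100 group made up 71.5% ± 3.09 of the members' signal in PS19 and 70.0% ± 1.79 in WT. The miR-125 group made up 28.3% ± 3.12 and 29.8% ± 1.80, and the miR-10 group 0.220% ± 0.044 and 0.216% ± 0.056. These shares differed between genotypes by less than their SD.

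For every member the difference between genotypes was smaller than the spread within them. On the log2 scale, every member was below its 16-library mean in PS19 replicates 6 and 8 and in WT replicates 6 and 7, with mean deviations over the members of -0.25, -0.96, -0.54 and -0.88. Every member was above its mean in PS19 replicates 3 and 4 and WT replicates 1 and 5, by 0.91, 0.51, 0.49 and 0.37 on average. The miRNA share of the signal was 15.0% to 23.9% in these 4 low libraries and 26.1% to 31.2% in the 4 high ones, but 20.45% (PS19 replicate 7) to 32.6% (WT replicate 3) in the other 8, so that it followed the members' levels only in part. Its part in the genotype comparison was not tested beyond scaling each RNA class to its own total, under which all 7 intervals still included 0.

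**Figure D3:**
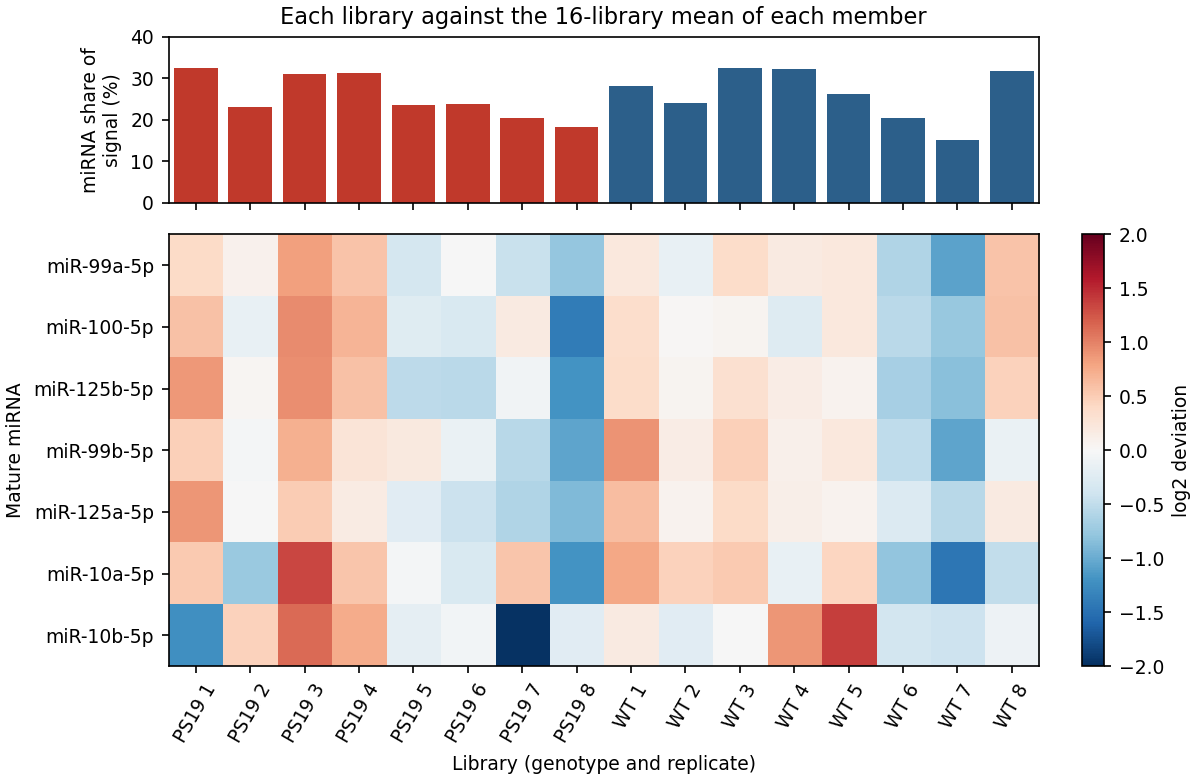
Top, the miRNA share of the normalized signal (percent) in each library. Bottom, the log2 deviation of each member from its mean over the 16 libraries, blue below and red above; PS19 8, WT 6 and WT 7 are blue in every row, PS19 3 and PS19 4 red in every row, and the miR-10b-5p row departs from the others in PS19 1 and PS19 7.

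The within-genotype SD of the log2 level was 0.55 for miR-99a-5p, 0.58 for miR-99b-5p, 0.61 for miR-100-5p, 0.49 for miR-125a-5p and 0.63 for miR-125b-5p. It was 0.80 for miR-10a-5p and 0.85 for miR-10b-5p. Both had fewer reads than the other members, but whether read number played a part in their spread was not tested. Relative to the miRNA total of each library, the SD fell to between 0.18 and 0.39 in the first 5 and to 0.52 in miR-10a-5p, but stayed at 0.83 in miR-10b-5p. Over the 184 miRNA features with a mean above 500, the median SD went from 0.67 to 0.37.

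Members varied together except for miR-10b-5p. With log2 levels centred within genotype, Pearson's r over the 16 libraries was highest between miR-100-5p and miR-125b-5p (0.94) and was 0.71 to 0.94 among all pairs without miR-10b-5p. With miR-10b-5p it ran from 0.19, for its closest relative in sequence miR-10a-5p, to 0.50 for miR-99a-5p. These are descriptions, since all points share the depth and RNA composition of their library.

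Of the member ratios computed (all of values + 1), that of miR-10a-5p to miR-10b-5p varied most. It was 8.33 in PS19 replicate 1 and 14.2 in PS19 replicate 7, between 1.07 and 2.86 in the other PS19 libraries, and between 1.20 and 3.95 in WT. miR-10a-5p itself was within the WT range in both of those libraries, at 480.3 and 487.8. By contrast the ratio of miR-100-5p to miR-99a-5p stayed between 0.631 (PS19 replicate 8) and 1.52 (PS19 replicate 7). The miR-125b-5p to miR-125a-5p ratio stayed between 0.815 (WT replicate 6) and 1.54 (PS19 replicate 7).

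**Figure D4:**
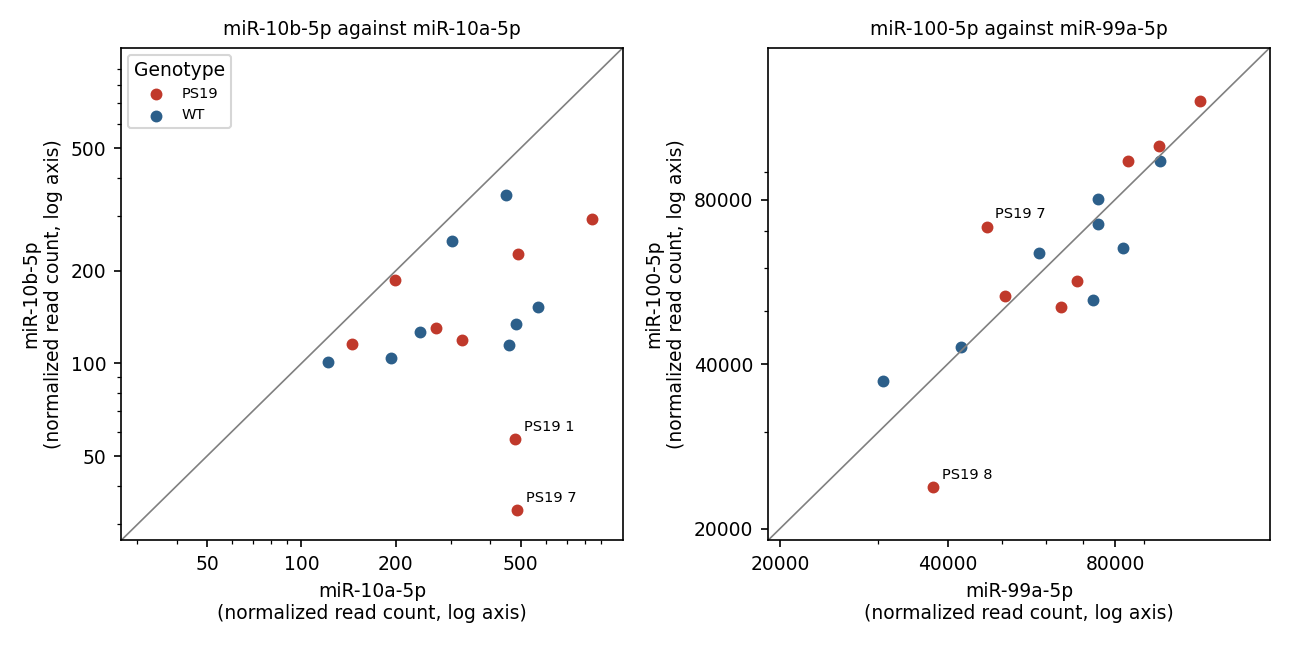
Left, miR-10b-5p against miR-10a-5p, and right, miR-100-5p against miR-99a-5p, as normalized read counts on log axes with 1 point per library and the line of equal levels. In the left panel PS19 1 and PS19 7 lie apart from the other 14 libraries, with miR-10b-5p at 56.8 and 33.3; in the right panel all libraries lie near the line.

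A circular RNA feature, mmu_circ_0010180, had almost the same values as miR-10b-5p: a mean of 161.6 against 156.0, Pearson's r of 0.9998 over the 16 libraries, and 2 to 11 more reads than miR-10b-5p in each library. Its log2 difference was -0.33. The reads behind both rows could not be told apart in these values, so the miR-10b-5p level is uncertain to that extent. No other member had such a near-identical row, taken as an r (of log2 levels) no lower than 0.99 together with means at most 2-fold apart.

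Beyond that row, the features from other hairpins that were most like each member over the 16 libraries, again by Pearson's r of centred log2 levels, came from several RNA classes. miR-99a-5p was most like miR-1843a-3p (0.99) and miR-340-3p (0.96), and miR-99b-5p most like tRNA-Gln-CTG features (0.96). miR-100-5p was most like its family member miR-125b-5p, and miR-125a-5p most like let-7d-5p (0.97). miR-125b-5p was most like miR-192-5p, miR-21a-5p and miR-26a-5p (0.96 to 0.97). miR-10a-5p was most like Gm24949, Rnu3b1 and Gm24826 (0.905 to 0.927), which GENCODE lists as small nucleolar RNA genes. After the near-identical circular RNA, miR-10b-5p reached 0.76 at most, with mmu_circ_0002495. None of these features had an unadjusted limma p under 0.05 between genotypes.

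Each opposite (3p) arm analysed here was much lower than the 5p arm of its own hairpin. miR-99b-5p was 23.7-fold higher than miR-99b-3p in geometric mean (18.4 to 34.0 over libraries), and miR-125a-5p 126-fold higher than miR-125a-3p (84.7 to 215.6). miR-99a-3p had 8 reads in all, spread over 7 libraries, and miR-100-3p had 3 reads, all in PS19 replicate 5. The 3p arms of miR-10a and miR-10b were not analysed here. Of 6 other arms with a row, 4 were tested and 0 had an unadjusted or adjusted limma p under 0.05.

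The 3p arms tell the miR-125b loci apart, because they differ in sequence. miR-125b-1-3p, from chromosome 9, ranged from 932.9 (median 1441) to 2064 in PS19 and from 1018 (median 1219) to 1923 in WT. Of the 8 PS19 values, 6 exceeded the median of WT, but the log2 difference of 0.18 ± 0.20 had an interval (-0.25 to 0.60) that included 0. miR-125b-2-3p, from chromosome 16, ranged from 264.0 (median 377.0) to 634.6 in PS19 and from 232.7 (median 475.9) to 662.7 in WT, a log2 difference of -0.17 ± 0.25 (interval -0.70 to 0.35). In geometric mean miR-125b-1-3p was 3.32-fold higher than miR-125b-2-3p, and it was higher in 16 of 16 libraries (1.66 to 6.10-fold).

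The hairpin features, which the table lists beside the mature arms, gave the other order. mir-125b-2 (mean 281.1) was 1.80-fold higher than mir-125b-1 (mean 149.0), again in 16 of 16 libraries. How the authors' counting divided reads between hairpin and mature features is not given in the sources used here. The highest hairpin feature was mir-99a (mean 527.4), followed by mir-125b-2, mir-100 (182.6) and mir-125b-1. mir-10a (26.6), mir-125a (20.2) and mir-99b (17.3) were lower, and mir-10b (4.78) fell below the minimum mean of 5. Of the 7 hairpin features tested, 0 passed either threshold, with log2 differences from -0.12 (mir-99b) to 0.15 (mir-99a).

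**Figure D5:**
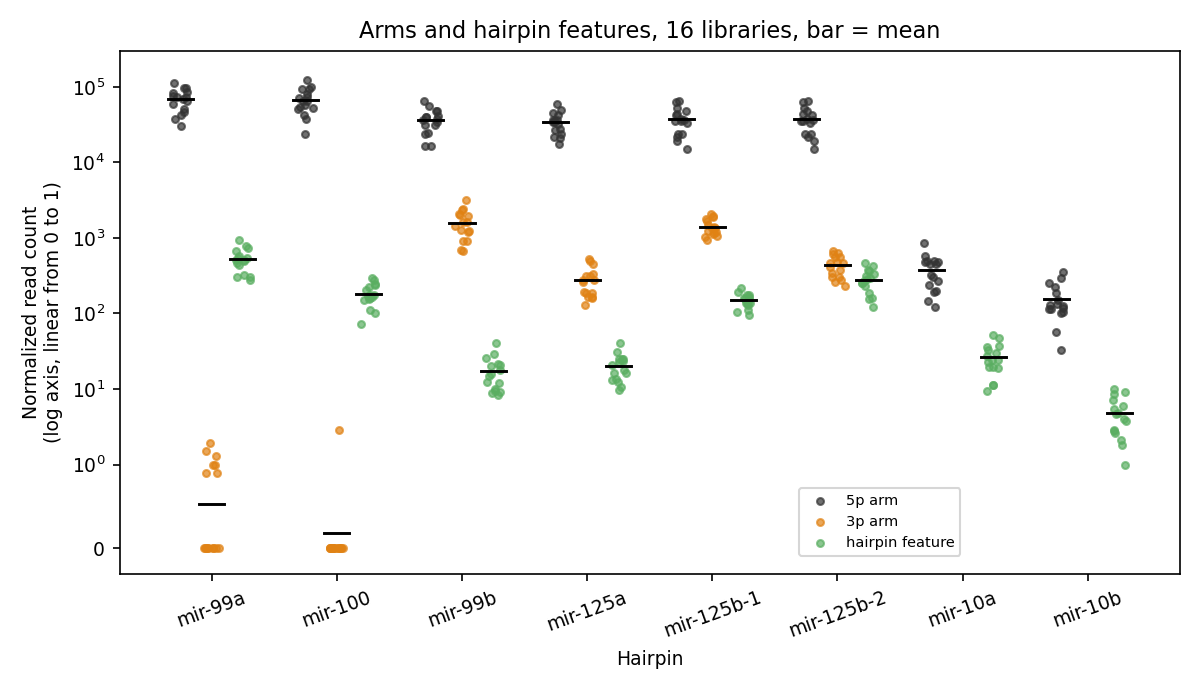
Normalized read count (log axis, linear between 0 and 1) of the 5p arm, the 3p arm and the hairpin feature of each hairpin in the 16 libraries, with bars at the means. No 3p arm is drawn for mir-10a and mir-10b. The 5p arm is the highest of the features drawn at all 8 hairpins, miR-125b-5p is drawn at both of its loci, and the 3p arms of mir-99a and mir-100 lie near 0.

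The let-7 partners in the 3 clusters, which are regulators of developmental timing, were above the members of their cluster on chromosomes 9 and 16 and below them on chromosome 17. let-7c-5p was in geometric mean 9.42-fold higher than miR-99a-5p, and let-7a-5p was 4.41-fold higher than miR-100-5p, although both are also made from hairpins outside these clusters. let-7e-5p, made from a single hairpin, was the lower partner: miR-99b-5p exceeded it 1.93-fold and miR-125a-5p 1.80-fold. Each of these 4 ratios had the same direction in 16 of 16 libraries, as a description without a test. Between genotypes, 0 of 5 tested partner features passed either threshold. The log2 difference was 0.22 ± 0.19 for let-7c-5p, -0.01 ± 0.28 for let-7a-5p, -0.11 ± 0.27 for let-7e-5p, -0.05 ± 0.27 for let-7e-3p and -0.55 ± 0.43 for let-7c-1-3p, each with an adjusted p of 0.9998 (limma). let-7c-1-3p had a mean of only 10.2, and let-7a-2-3p had 7 reads in all.

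Other miRNAs encoded in Hox clusters were nearly absent from these libraries. miR-196a-5p and miR-196b-5p had 1 read each, in WT only, and miR-615-3p had 13 reads over 7 libraries, with a maximum of 4. Thus miR-10a-5p and miR-10b-5p, at 39 or more reads in every library, were the only Hox-encoded miRNAs of this list above 4 reads in any library.

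In the marker lists of other cell types and tissues, 0 of the miRNAs tested had an unadjusted or adjusted limma p under 0.05 between genotypes, but 2 of 3 leukocyte markers were below the minimum mean of 5. The summed range was 18522 to 52332 in PS19 and 13365 to 46513 in WT for oligodendrocytes (miR-219a-2-3p, miR-338-3p), 15206 to 61634 and 17840 to 60601 for vessels (miR-126a-3p, miR-143-3p, miR-145a-5p), and 522.2 to 2893 and 401.7 to 1463 for microglia and leukocytes (miR-142a-3p, miR-146a-5p, miR-223-3p). For red cells (miR-144-3p, miR-451a, miR-486a-5p) it was 730.6 to 1518 and 651.6 to 1411. The microglia and leukocyte sum was almost wholly miR-146a-5p (mean 1388 in PS19 and 1017 in WT). In all, miR-142a-3p had 31 reads in PS19 and 8 in WT, and miR-223-3p had 21 and 39. The red cell sum was mostly miR-486a-5p (mean 975.6 over the 16 libraries). The mean of miR-451a was 15.6, and miR-144-3p had 6 reads in all. Markers of tissue beside the cortex varied more widely: choroid plexus (miR-204-5p, miR-448-3p) from 785.5 to 6772 and 548.1 to 4317, and olfactory bulb (miR-200a-3p, miR-200b-3p, miR-429-3p) from 32.5 to 565.4 and 53.0 to 3175. In bulk tissue, fewer cells of a type and less miRNA per cell cannot be told apart, and the part of tissue makeup in the members' levels was not tested.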

How the data were processed

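Small RNA was isolated from frozen prefrontal cortex of mice perfused with saline, one library per mouse, and sequenced single-end. The authors aligned reads with STAR 2.5.3a in COMPSRA, with mm10 named in the processing notes, and deposited normalized counts, the signal analysed here, which are reads divided by 1 DESeq2 (1.42.1) size factor per library. The table also holds the authors' own comparison (mean, log2 fold change, its error, statistic and p-values), which was not used; 0 library columns were left out. Whole reads were recovered by dividing each library by its smallest value above 0 (100% of values within 0.01 reads of a whole number). In WT replicates 4 and 6 that value is close to 1, so the recovery is less certain there.

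The 6024 features whose mean over the 16 libraries reached 5 were tested with limma 3.58.1 (R 4.3.3; lmFit, eBayes with trend) on log2(value + 1), genotype only, with Benjamini-Hochberg adjustment. Fold changes on this scale understate changes of low features. The limma step was tested on simulated data. Neighbouring levels were compared by an exact two-sided sign-flip permutation test, paired within libraries (numpy 2.4.6). Alternatives were DESeq2 1.42.0 and edgeR 4.0.16 (quasi-likelihood) on recovered reads, other scalings, filters, pseudocounts, weights and terms, and leaving out each library. Named features were the members, their other arms and hairpins, let-7 cluster partners, miR-351-5p, Hox cluster miRNAs, near-identical rows and the 3 features most like each member (here only examples of these). Library codes begin with G in 8 PS19 and 2 WT libraries, F in 4 WT and A in 2 WT. The sources used here do not say what the letter means. A term for the letter leaves the genotype comparison to the libraries with G. Members and lists were chosen with earlier results of these data known.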

Additional observations from a re-analysis of the deposited data

Results flagged for a closer look

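In a set of 82 group values (the named features and ratios, each in 8 libraries of 1 genotype), Dixon's rule picked out 2 in which 1 library stood far from the other 7. Chance alone gives about 1 in 20, or 4.1 of 82. let-7c-1-3p was 21.1 in WT replicate 4, with the next WT value at 12.5, a gap of 0.615 of the group's range. The ratio of miR-99b-5p to miR-99a-5p was 0.777 in PS19 replicate 5, with the next PS19 value at 0.566, a gap of 0.610 of the range.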

How the results depend on the processing

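In 29 alternative fits the number of members past either threshold stayed at 0. The lowest unadjusted p of a member was 0.177 (limma, miR-10b-5p without PS19 replicate 3), and the lowest adjusted p was 0.901. Of 91 member values in fits with all 16 libraries or with PS19 replicates 1 and 7 left out together, 84 kept their sign. The other 7 log2 differences were 0.023 for miR-99b-5p when every RNA class was scaled to its own total, -0.035 for miR-125b-5p with array weights, -0.087 for miR-125b-5p and -0.071 for miR-10a-5p with a term for the first letter of the library codes, and -0.035 for miR-100-5p, -0.11 for miR-125b-5p and 0.15 for miR-10b-5p without PS19 replicates 1 and 7, a setting chosen after seeing the data. For these 7 the cause was not tested.

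Leaving out 1 library at a time, the log2 difference ran from -0.077 to 0.19 for miR-99a-5p, -0.18 to 0.12 for miR-99b-5p, -0.050 to 0.29 for miR-100-5p, -0.29 to -0.04 for miR-125a-5p, -0.11 to 0.19 for miR-125b-5p, -0.025 to 0.35 for miR-10a-5p and -0.52 to -0.07 for miR-10b-5p, and the median over the members from -0.11 to 0.19. In 18 of 112 such values the sign changed. The order of levels had 3 resolved steps under both other pseudocounts and in each genotype alone; the log2 ratio of miR-125b-5p to miR-99b-5p was 0.020 in PS19 alone and -0.01 over all libraries.

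Replicate numbers in the titles were not taken to pair the samples, because nothing in the labels says what they mark and not every pair correlated above 0.1. Deviations of same-numbered libraries did correlate positively in all 8 pairs (0.0446 to 0.456, over 0.1 in 6), and 2 of 8 libraries in each genotype correlated best with their own number. With the replicate number as a block, SEs of the members fell, from 0.23 to 0.15 for miR-125a-5p and from 0.38 to 0.30 for miR-10b-5p, but 0 members passed, all 7 intervals included 0, the lowest limma p was 0.287 (miR-10b-5p), and 419 of 6024 features had an unadjusted p under 0.05. Without the block that count was 241; of 6024 it was also 418 with array weights, 124 with the letter term and 171 to 321 without single libraries. It was 680 of 17088 features tested with no filter and 136 of 2510 with a mean of at least 20. DESeq2 called 15 features at an adjusted p under 0.05, none of them members.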
